A study of Mus musculus with 13 samples.

Results

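Menin, DOT1L, the adaptor proteins that hold MLL complexes on chromatin and the proteins most often fused to MLL were followed as a set of 10 genes: Men1, Psip1, Wdr5, Ash2l, Dot1l, Mllt10, Mllt1, Mllt3, Aff1 and Aff4. They were taken by gene symbol, all 10 were found among the 24328 genes of each table, and all 10 passed the filter on low counts. They were measured by RNA sequencing in 13 libraries of mouse bone marrow origin. There was 1 library of wild-type granulocyte-monocyte progenitors (GMP), the normal cells. There was also 1 of leukemia stem cells (LSC) of MLL-AF10 leukemia and 1 of its mature AML cells (mAML). A time course followed LSC exposed to A-485, which blocks acetylation by p300 and CBP, for 8, 24, 48 or 72 h, with 2 libraries a time. It began from 2 untreated LSC libraries, called 0 h. All leukemia groups, the 0 h controls included, are labelled as tumor. The labels describe murine MLL-AF10 leukemia cells kept in RPMI medium with serum and WEHI-conditioned medium, and do not say for single samples whether the RNA came from culture or directly from marrow. Strain, age, the fusion construct, the dose of A-485 and a vehicle control for the later times are not given in the sources used here. Nothing says that the paired libraries of a time came from separate cultures, so p-values measure the spread between these libraries, which may be technical.

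MLL (Kmt2a) is a histone H3 lysine 4 methyltransferase. Menin, the product of Men1, binds its N-terminal part together with LEDGF, the product of Psip1, and this tether is kept by the fusion oncoproteins. WDR5 and ASH2L belong to the core that all MLL and SET1 methyltransferases share, a core that attaches to the C-terminal SET domain lost in the fusions. The partner proteins mostly work in transcription elongation: AFF1 (AF4) and AFF4 are scaffolds of the super elongation complex, ENL (Mllt1) and AF9 (Mllt3) read acylated histones through a YEATS domain, and AF10 (Mllt10) is a cofactor of DOT1L, the histone H3 lysine 79 methyltransferase. Menin and DOT1L are both drug targets in leukemia with MLL rearrangement.

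Levels are given in CPM, counts scaled to library depth, and, where genes are compared per length, in TPM, RSEM's transcript abundance scaled for length and depth. The single libraries were deeper than those of the time course. They held 24532508 (GMP), 40468515 (LSC) and 47257642 (mAML) counts, against 6467764 to 9763276 in the time course, and the 10 genes together took 0.0696% to 0.151% of the counts. The libraries were checked against marker genes. All 4 markers of MLL-rearranged leukemia (Hoxa9, Hoxa10, Meis1 and Pbx3) were at 1 TPM or more in every leukemia library, summing to 132 to 508 TPM, against 13.1 TPM in GMP. The summed level of 8 myeloid progenitor markers went from 10300 and 9890 TPM at 0 h to 349 and 282 TPM at 72 h, and that of 10 mature myeloid markers from 12900 and 6760 TPM to 422 and 380 TPM. Not every mature marker fell: Itgam went from 211 and 184.5 TPM at 0 h to 254.2 and 256.6 TPM at 72 h. Fn1 and Mmp8 were at no more than 0.11 TPM in the time course. In mAML all 7 T and NK cell markers in the tables reached 1 TPM, 6 erythroid markers summed to 3390 TPM, and Cd3e, which defines T cells, was at 6.32 TPM. Cd3e was listed at 0 in GMP, LSC and at 0 h. The B cell gene Cd79b stood at 44.9, 48.2 and 55.3 TPM in GMP, LSC and mAML and at no more than 0.75 TPM in the time course, where the 5 B cell markers summed to at most 1.24 TPM. The 6 stromal and endothelial markers summed to 11 to 83 TPM in the single libraries and to 139 to 375 TPM in the time course, nearly all of it Pecam1. With treatment the library make-up also moved: the nuclear RNA Malat1 went from 266 and 272 CPM before TMM scaling at 0 h to 2853 and 3276 at 72 h. The mean effective length of the transcripts behind a read, RSEM's length open to reads, went from 2861 and 2848 nt to 3530 and 3422 nt. In bulk samples a smaller share of cells of one type and less RNA per cell cannot be told apart, and what these shifts contribute to the values below was not tested.

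Under A-485 the 10 genes split. Wdr5 fell at all 4 times and by the most, Psip1 fell at 24 and 48 h, Aff4 rose at all 4 times and Aff1 rose from 24 h on. Men1 fell slightly at all 4 times relative to the other genes, a direction that turned on the TPM scale. Dot1l, Mllt10, Mllt1, Mllt3 and Ash2l did not pass the main test at any time. With the trend of change with transcript length removed, the only rise against 0 h still called was that of Aff4 at 48 h. In that setting Dot1l was called lower from 24 h on. Each treated time was compared with 0 h by edgeR's quasi-likelihood test over 11119 genes, with TMM scaling, which assumes that most genes do not change, and calls at a Benjamini-Hochberg adjusted p under 0.05. At 8 h 1 member was called higher and 2 lower, where 17.9% of all genes tested were called higher and 21% lower. At 24 h the members' counts were 2 higher and 3 lower (all genes 23.2% and 27.1%), at 48 h again 2 and 3 (25.2% and 30.5%), and at 72 h 2 and 2 (25.9% and 29.4%). When the 4 times were tested together 5 of the 10 members were called, against 59.8% of all genes. As a set, the members were thus called about as often as any gene, and their median log2 change lay between -0.11 and -0.07 at the 4 times, beside -0.04 to 0.01 over all genes.

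**Figure D1:**
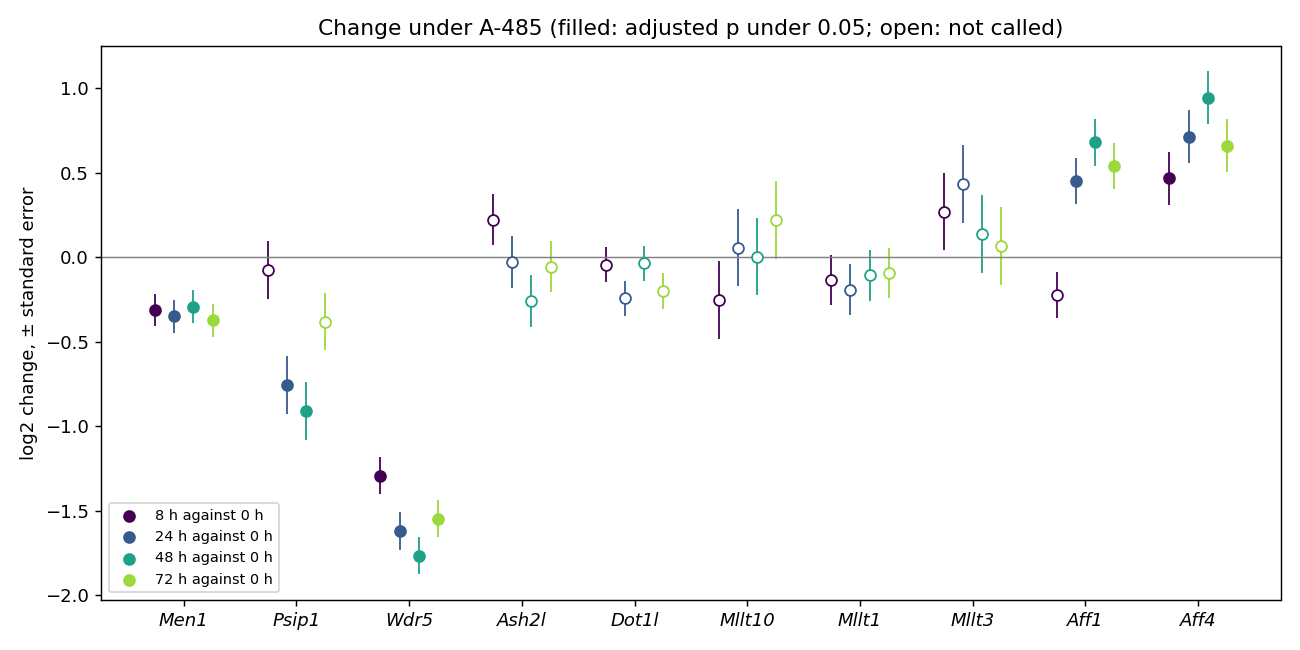
Log2 change of each of the 10 genes at 8, 24, 48 and 72 h of A-485 against 0 h, with its standard error; filled points passed edgeR's test at an adjusted p under 0.05. Wdr5 lies lowest at every time and Aff4 highest at every time.

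Wdr5, the member with the largest decrease, and Aff4 and Aff1, the members that rose, are shown first by their promoters, the 250 bases before the RefSeq transcription start on GRCm38.p6. That build is newer than the mm9 build of the tables and serves here only to show the sequences. Of the 10 members 8 were matched in the promoter table; Psip1, which fell at 24 and 48 h, and Ash2l were not among them. All 3 genes lie on the plus strand: the Wdr5 stretch is chr2:27514897-27515146, that of Aff4 chr11:53350517-53350766 and that of Aff1 chr5:103753912-103754161. For Aff1 the table holds a second window, chr5:103754323-103754572, and the more upstream one is printed. Capitals mark matches to the motifs searched.
Wdr5: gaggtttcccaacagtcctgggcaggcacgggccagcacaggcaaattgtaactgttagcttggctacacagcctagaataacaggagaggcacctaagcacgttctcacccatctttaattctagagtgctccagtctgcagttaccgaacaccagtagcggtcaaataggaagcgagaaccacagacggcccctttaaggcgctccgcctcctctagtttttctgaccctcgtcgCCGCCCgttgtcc
Aff4: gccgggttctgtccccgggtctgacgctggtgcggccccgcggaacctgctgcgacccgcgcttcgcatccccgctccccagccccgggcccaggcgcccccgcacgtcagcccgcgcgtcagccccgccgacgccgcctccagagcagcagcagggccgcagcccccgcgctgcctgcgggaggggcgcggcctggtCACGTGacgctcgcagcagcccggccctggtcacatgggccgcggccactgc
Aff1: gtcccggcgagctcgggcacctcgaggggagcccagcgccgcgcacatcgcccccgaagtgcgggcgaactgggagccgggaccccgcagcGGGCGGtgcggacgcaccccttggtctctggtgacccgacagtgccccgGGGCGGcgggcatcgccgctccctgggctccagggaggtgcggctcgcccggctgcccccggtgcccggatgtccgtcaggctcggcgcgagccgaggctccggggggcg

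Motifs were searched on both strands in 32851 promoter windows of the same table. The E-box, CACGTG, is in 6.0% of the windows and the GC box, GGGCGG, in 32.7%. The CCAAT box, spelled by its name, is in 33.8%, the ETS site, CCGGAAG, in 6.9% and the TATA box, TATAAA, in 12.4%. The NRF1 site is in 0.8%, the cyclic AMP response element, TGACGTCA, in 1.5% and the AP-1 site, TGACTCA, in 4.5%. The Wdr5 window held 1 GC box, read on the other strand, with its first base at -13 from the start, and had 54.4% G and C with 12 CpG. The Aff4 window held 1 E-box at -52 and was 79.2% G and C with 34 CpG. For Wdr5 and Aff1 the bases just after a listed start were found in a GENCODE reference transcript of the gene. For Aff4 they were not, so its start, and the position counted from it, are less certain. The printed Aff1 window held GC boxes at -159 and -110 and was 78.8% G and C with 35 CpG, and the other Aff1 window held 3 GC boxes and was 66.4% G and C with 20 CpG. The median of all windows was 52.4% G and C with 6 CpG. The Wdr5 window was near that median in G and C share, though not in CpG, and those of Aff4 and Aff1 were above it in both. These are descriptions of 3 windows, and a match is not a bound site.

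Wdr5 encodes the WD-repeat subunit that links the SET domain of MLL to the rest of its core. Its level, in TMM-scaled CPM, was 189.6 and 180.5 at 0 h, 80.3 and 70.8 at 8 h, 62.2 and 58.3 at 24 h, 56.4 and 52.5 at 48 h and 61.9 and 64.7 at 72 h. All 8 treated libraries lay below both 0 h libraries, as they did for 25.5% of all genes. The means were 185 ± 6.46 CPM at 0 h and 75.6 ± 6.72, 60.2 ± 2.8, 54.4 ± 2.71 and 63.3 ± 2.02 CPM in treated cells (SD, n = 2 libraries each). Most of the decrease was present at 8 h. The log2 change of Wdr5 by edgeR's test was -1.29 ± 0.11 at 8 h (SE; adjusted p = 9.87e-05), -1.62 ± 0.11 at 24 h (adjusted p = 2.8e-05), -1.77 ± 0.11 at 48 h (adjusted p = 1.02e-05) and -1.55 ± 0.11 at 72 h (adjusted p = 1.73e-05). These are decreases of 2.45-, 3.07-, 3.4- and 2.92-fold. The step from 8 to 72 h, -0.26 ± 0.11, did not pass the edgeR test (adjusted p = 0.106). Wdr5 was called lower at each of the 4 times under all 19 other settings tried, with log2 changes between -1.82 and -0.82.

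Ash2l, which with RBBP5 activates the methyltransferase core that WDR5 joins, did not pass the test at any time. It measured 187.8 and 191.4 CPM at 0 h, 192.3 and 250.3 at 8 h, 167.2 and 204.8 at 24 h, 162 and 154.7 at 48 h and 198.1 and 167 at 72 h. The treated libraries lay on both sides of the controls, and the log2 changes from 0.22 ± 0.15 at 8 h to -0.26 ± 0.15 at 48 h did not pass edgeR's test (adjusted p = 0.274 and 0.182). Ratios within a library do not depend on the scaling between libraries. The Ash2l to Wdr5 ratio of TPM was 0.614, 0.621 and 0.633 in GMP, LSC and mAML, 0.881 and 0.943 at 0 h, and 2.12 to 3.14 in the 8 treated libraries. Rbbp5 (named after its values were seen) measured 70.8 and 70.3 CPM at 0 h and 58.9 to 85.5 CPM in treated cells, with no call at any time, and its TPM ratio to Wdr5 went from 0.292 and 0.305 at 0 h to between 0.785 and 1.09. The ratios show that Wdr5 changed unequally to Ash2l and Rbbp5. This does not extend to all of the core: Dpy30, which binds ASH2L, fell as well. Its log2 changes were -1.08, -1.45 and -1.06 at 24, 48 and 72 h, and its further values are given below. On the length-scaled TPM, Wdr5 was the most abundant of the 10 members in GMP, LSC, mAML and both 0 h libraries, at 96.2, 87.6, 61.1, 80.4 and 76.4 TPM, and Ash2l was the most abundant in all 8 treated libraries, at 91.2 to 131 TPM.

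**Figure D2:**
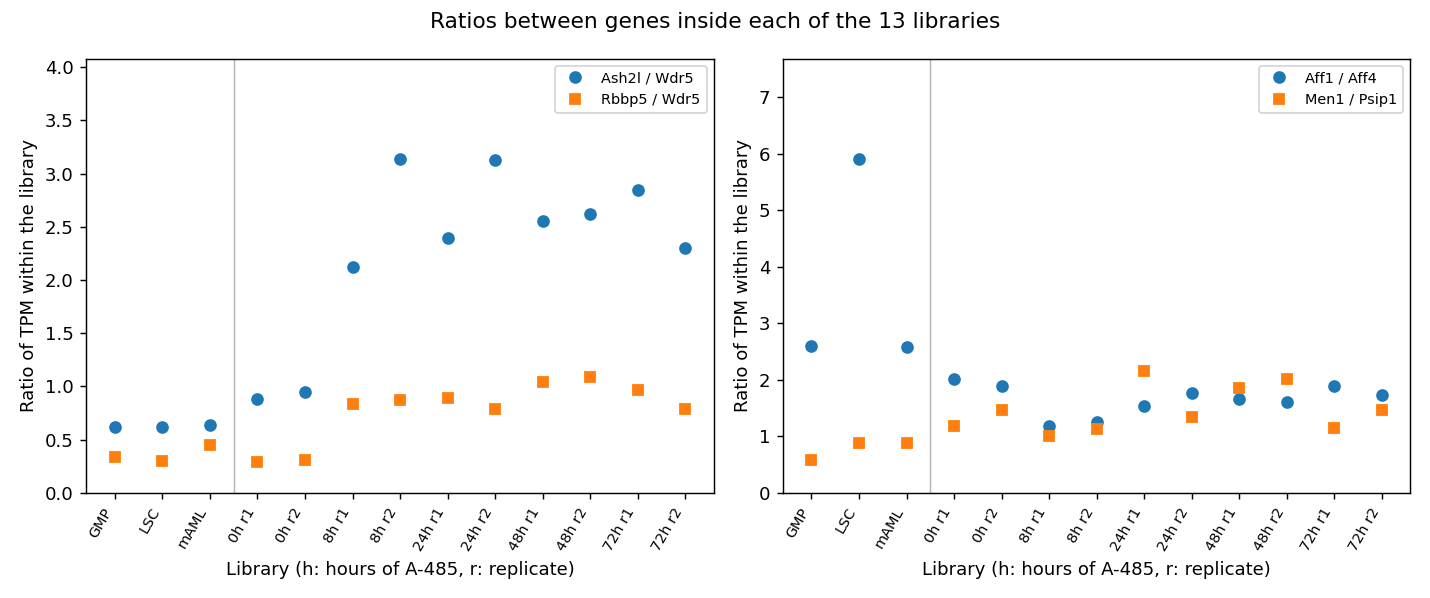
Ratios of TPM within each of the 13 libraries, on linear axes, for Ash2l to Wdr5, Rbbp5 to Wdr5, Aff1 to Aff4 and Men1 to Psip1. The Ash2l to Wdr5 ratio is 0.614 to 0.943 in the 5 libraries without A-485 and 2.12 to 3.14 in the 8 with it.

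Men1 encodes menin, the scaffold through which MLL and its fusions reach the Hoxa genes and Meis1. It measured 138.5 and 136.6 CPM at 0 h, 108.2 and 113.4 at 8 h, 113 and 103 at 24 h, 112.2 and 112.4 at 48 h and 101.2 and 111.4 at 72 h. All 8 treated libraries were below both controls, as they were for 25.5% of all genes, and the treated times overlapped one another. The log2 changes were -0.31 ± 0.10, -0.35 ± 0.10, -0.29 ± 0.10 and -0.37 ± 0.10 at 8, 24, 48 and 72 h (edgeR, adjusted p = 0.0328, 0.0167, 0.031 and 0.0113). The decrease was relative to the other genes: with scaling by library size alone the Men1 changes were 0.00, -0.04, 0.06 and -0.01, and on log2(TPM + 1) with limma they were 0.10, 0.14, 0.36 and 0.33, called higher at 48 and 72 h (adjusted p = 0.0101 and 0.0143). Less the median change of all genes, Men1 was 0.20 to 0.40 lower on the log2 scale in 76 of 76 combinations of time and setting. Every Men1 call was lost without either 0 h library, with adjusted p of 0.0696 to 0.214 by edgeR. Other leave-outs also cost calls: either 8 h library or either 48 h library at 8 h, replicate 2 of 24 h at 24 h, replicate 1 of 8 h or either 48 h library at 48 h, and replicate 1 of 72 h at 72 h. With no filter the calls at 8, 24 and 48 h were lost (adjusted p = 0.112, 0.0555 and 0.114), and with DESeq2 that at 48 h (adjusted p = 0.063). Those at 8 and 48 h were lost with the length trend removed and a replicate block (edgeR, adjusted p = 0.0636 and 0.0595).

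Psip1 encodes LEDGF, the PWWP-domain protein that joins menin and MLL on chromatin marked by methylated lysine 36 of histone H3. Its level was 126.3 and 104 CPM at 0 h, 110.4 and 108.2 at 8 h, 56.9 and 79.4 at 24 h, 63.7 and 59 at 48 h and 94.4 and 82.4 at 72 h. The 24 and 48 h libraries were all below the controls, the 8 h libraries lay between the controls, and the 72 h libraries were just below them. The change was -0.08 ± 0.17 at 8 h (edgeR, adjusted p = 0.751), -0.76 ± 0.17 at 24 h (adjusted p = 0.00654), -0.91 ± 0.17 at 48 h (adjusted p = 0.00224) and -0.38 ± 0.17 at 72 h (adjusted p = 0.0842). The 24 h call was lost without replicate 1 of 0 h (-0.58, adjusted p = 0.0603). On log2(TPM + 1) with limma neither call held, with changes of -0.23 at 24 h and -0.19 at 48 h (adjusted p = 0.314 and 0.397). The 72 h value was called lower without either 24 h library (adjusted p = 0.0364 and 0.0373).

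**Figure D3:**
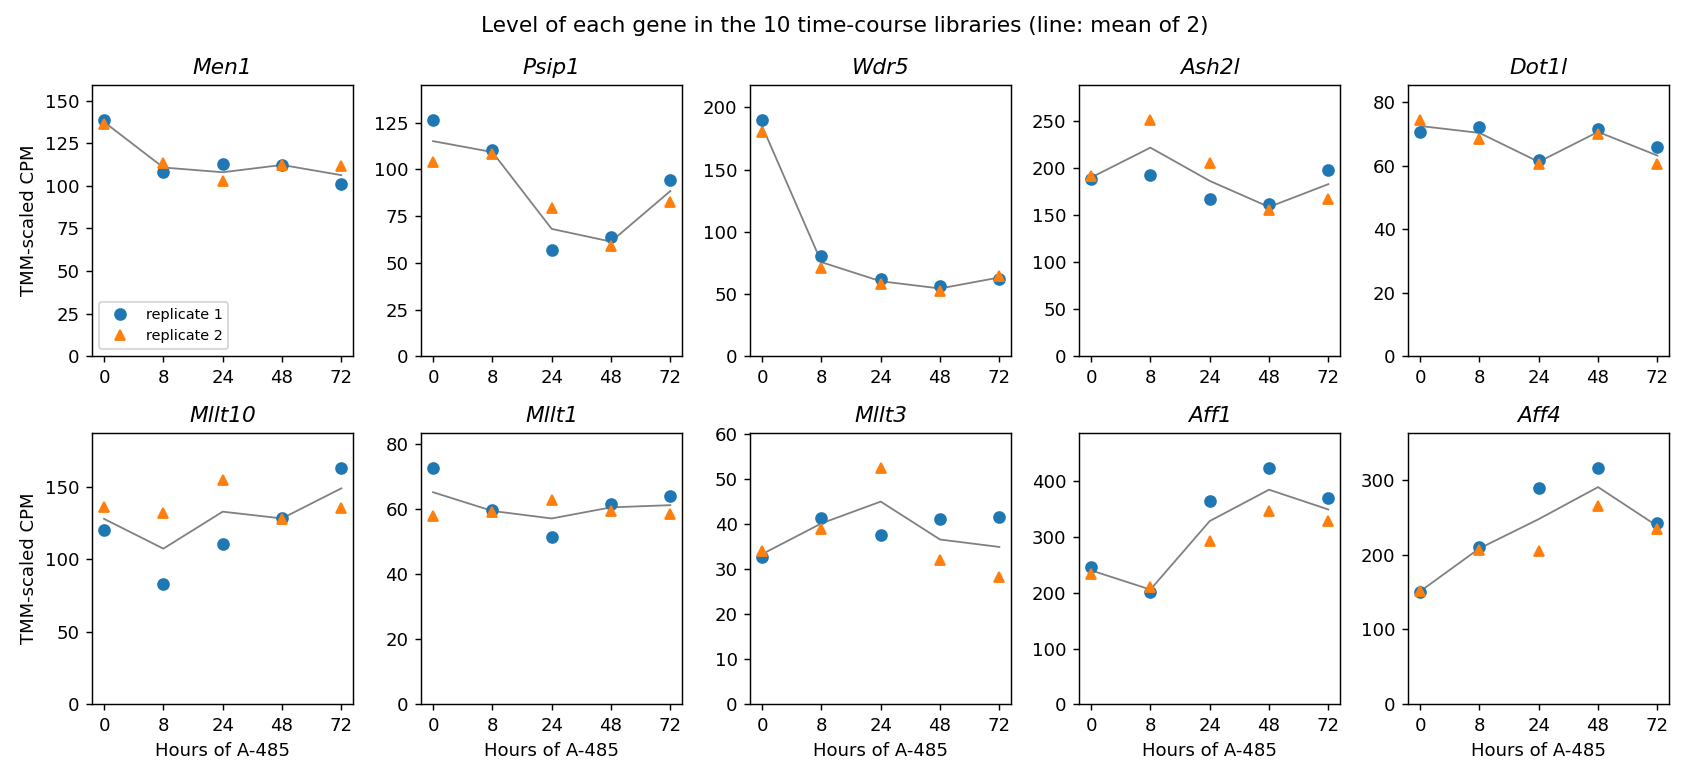
TMM-scaled CPM of the 10 genes in the 10 time-course libraries, 1 panel a gene, with hours of A-485 on the x axis, points for libraries and lines through the mean of 2. Wdr5 drops from 185 to 75.6 CPM by 8 h, Aff4 goes from 151 to 290 CPM at 48 h, and Aff1 first reads 206 CPM at 8 h and then 329 to 385 CPM.

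Dot1l, the H3 lysine 79 methyltransferase that AF10, ENL and AF9 recruit, measured 70.7 and 74.2 CPM at 0 h, 72 and 68.5 at 8 h, 61.8 and 60.5 at 24 h, 71.4 and 69.8 at 48 h and 65.7 and 60.5 at 72 h. The 24 and 72 h libraries were below both controls and those of 8 and 48 h overlapped them. The largest change, -0.24 ± 0.11 at 24 h, did not pass edgeR's test (adjusted p = 0.0841). With the relation between transcript length and change removed, the Dot1l values, for a transcript of 5694 nt, became -0.47, -0.33 and -0.46 at 24, 48 and 72 h and were called lower (edgeR, adjusted p = 0.00585, 0.0229 and 0.00539). With scaling by library size alone they were 0.063, 0.31 and 0.17.

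Mllt10 encodes AF10, the partner in the fusion these leukemia cells carry. Reads of the fusion could be counted as Mllt10, and the gene-level counts cannot separate them from the native gene. Mllt10 measured 120 and 135.9 CPM at 0 h, 83 and 131.8 at 8 h, 110.7 and 155.1 at 24 h, 128.8 and 127.7 at 48 h and 162.8 and 135.2 at 72 h. The libraries of a time lay far apart at 8 and 24 h, and no time passed edgeR's test (log2 changes -0.25, 0.06, 0.00 and 0.22, adjusted p = 0.409, 0.856, 0.991 and 0.437). In the wild-type GMP library, which is labelled WT, Mllt10 was at 32.7 TPM, beside 39.2 in LSC, 30.2 in mAML and 28 and 32 at 0 h. On TPM the leukemia libraries thus lay on both sides of the normal one. On TMM-scaled CPM the log2 ratio to GMP was 0.50 in LSC, 0.195 in mAML and 0.039 for the 0 h libraries. The mean length of the Mllt10 transcripts that the counts were assigned to was 5001 to 5059 nt in all 13 libraries. The part of fusion reads in these values was not tested.

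Mllt1 encodes ENL and Mllt3 its close relative AF9, the YEATS-domain readers shared by the DOT1L and elongation complexes. Mllt1 measured 72.6 and 57.9 CPM at 0 h and 51.6 to 64.1 CPM in treated cells, and its log2 changes of -0.19 to -0.09 did not pass edgeR's test (adjusted p = 0.309 to 0.623). Mllt3 measured 32.6 and 34 CPM at 0 h, 41.4 and 38.8 at 8 h, 37.6 and 52.3 at 24 h, 41 and 32.1 at 48 h and 41.6 and 28.2 at 72 h. Both 8 h and both 24 h libraries of Mllt3 were above the controls, but the changes of 0.27 ± 0.23 and 0.43 ± 0.23 did not pass the edgeR test (adjusted p = 0.38 and 0.146). Mllt3 was the lowest of the 10 members per length in all 13 libraries, at 0.08 to 14.2 TPM.

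Aff4, the scaffold that brings the kinase P-TEFb and the ELL proteins together in the super elongation complex, measured 149.7 and 152 CPM at 0 h, 210.4 and 206.2 at 8 h, 289.6 and 205.3 at 24 h, 315.3 and 265.2 at 48 h and 242.2 and 234.1 at 72 h. All 8 treated libraries were above both controls, as they were for 22.6% of all genes. Aff4 was 0.47 ± 0.16 higher at 8 h on the log2 scale (edgeR, adjusted p = 0.0436), 0.71 ± 0.16 at 24 h (adjusted p = 0.00579), 0.94 ± 0.16 at 48 h (adjusted p = 0.00113) and 0.66 ± 0.16 at 72 h (adjusted p = 0.00715). Without replicate 1 of 24 h the 24 h change was 0.45 (adjusted p = 0.0236). The 8 h call was lost without any 1 of the 0, 8, 48 or 72 h libraries (adjusted p = 0.054 to 0.125). Its transcript of 10165 nt is the longest of the set, and the mean effective length behind a read moved with treatment as given above. With the length trend over all genes removed the Aff4 values were 0.28, 0.31, 0.40 and 0.15, of which only that of 48 h passed (edgeR, adjusted p = 0.146, 0.103, 0.0408 and 0.399).

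Aff1 encodes AF4, a frequent fusion partner of MLL in infant acute lymphoblastic leukemia and a relative of AFF4. It measured 246.6 and 234 CPM at 0 h, 201.3 and 210.3 at 8 h, 364 and 293.6 at 24 h, 423.4 and 346.8 at 48 h and 370.5 and 328.7 at 72 h. Both 8 h libraries were below the controls and the 6 later libraries were above them. At 8 h the change of -0.22 ± 0.14 did not pass edgeR's test (adjusted p = 0.224); it was 0.45 ± 0.14 at 24 h (adjusted p = 0.0237), 0.68 ± 0.14 at 48 h (adjusted p = 0.00314) and 0.54 ± 0.14 at 72 h (adjusted p = 0.00972). Between 8 and 72 h Aff1 rose by 0.77 ± 0.14 (edgeR, adjusted p = 0.00372), where 15.1% of all genes were called higher and 17.2% lower. It was the only member called between those times, and its call held in all 19 other settings, with values from 0.51 to 1.02. The calls against 0 h held less widely: that at 24 h was lost without either 0 h library (0.53 and 0.45, adjusted p = 0.0623 and 0.0935) or replicate 1 of 24 h (0.29, adjusted p = 0.139), and that at 72 h without replicate 1 of 72 h (0.45, adjusted p = 0.0618). With the length trend removed, Aff1, with transcripts of 8318 to 8323 nt, was called lower at 8 h (-0.38, adjusted p = 0.0215) and not called at 24, 48 or 72 h (0.11, 0.23 and 0.13, adjusted p = 0.397, 0.0973 and 0.324). The Aff1 to Aff4 ratio of TPM was 2.02 and 1.89 at 0 h, 1.18 and 1.25 at 8 h and 1.54 to 1.88 later. Thus within the same libraries the 2 relatives were closest in level at 8 h.

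How a library is scaled shifts the whole set. TMM factors were 0.83 in both 0 h libraries and 1.03 to 1.07 in the treated ones. With scaling by library size alone the median change of all genes was 0.33, 0.28, 0.31 and 0.34 at 8, 24, 48 and 72 h, and on log2(TPM + 1) it was 0.41, 0.43, 0.56 and 0.62. Members called higher and lower with library size alone were 2 and 1 at 8 h, 3 and 2 at 24 and 48 h, and 3 and 1 at 72 h, where 36.7%, 37.5%, 39.7% and 41.5% of all genes were called higher and 13.7%, 18.1%, 21% and 20% lower. With limma on log2(TPM + 1) they were 4 and 1, 4 and 1, 7 and 1, and 8 and 1, where 43.7%, 45.9%, 52.2% and 54.9% of all genes were called higher and 12.2%, 14.4%, 15.7% and 14.7% lower. Less the median of all genes, Wdr5 and Men1 were below it and Aff4 above it in all 76 combinations of 4 times and 19 settings, and Psip1 was below it in 75.

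**Figure D4:**
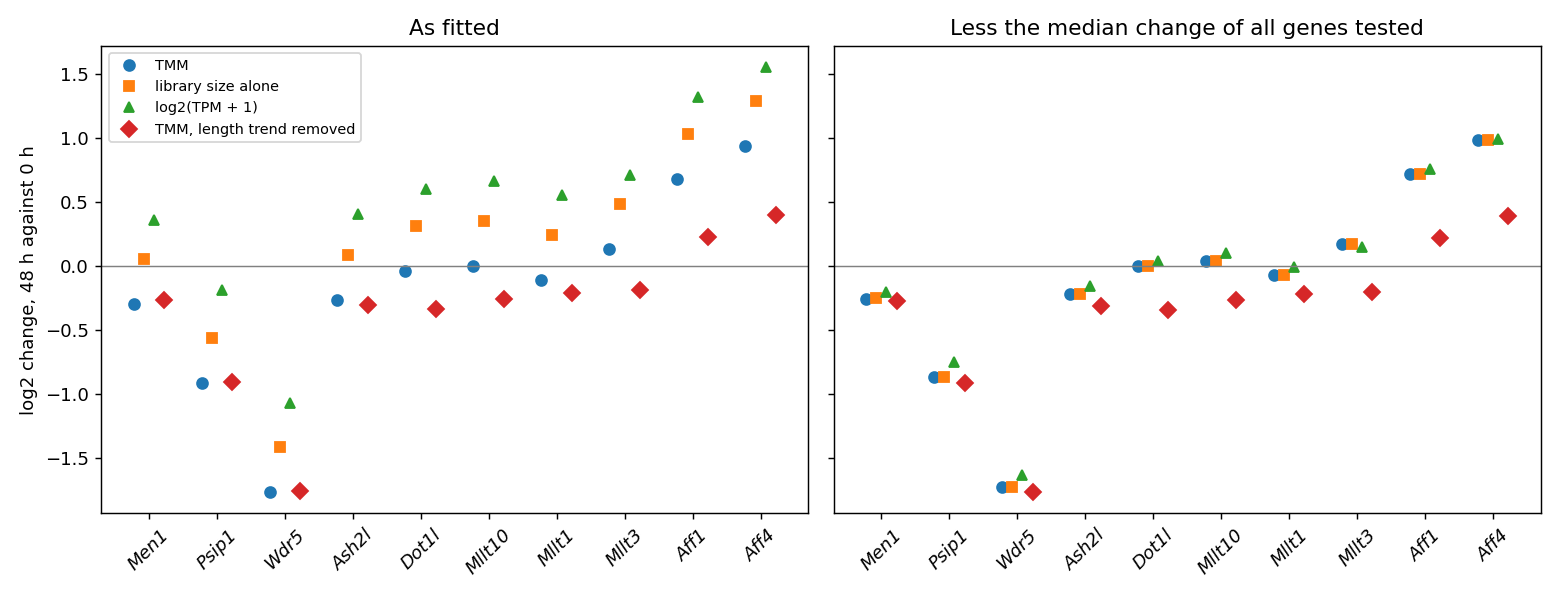
Log2 change of the 10 genes at 48 h against 0 h with TMM, library size alone, log2(TPM + 1), and TMM with the length trend removed. The left panel gives the values as fitted, the right panel the values less the median change of all genes tested. That median was -0.04 under TMM and 0.56 on log2(TPM + 1), and Wdr5 stays lowest in each setting shown.

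The other genes of these pathways were taken from 6 lists. Their counts stand against 17.9%, 23.2%, 25.2% and 25.9% of all genes called higher at 8, 24, 48 and 72 h, and 21%, 27.1%, 30.5% and 29.4% called lower. Of 16 genes of the COMPASS and MLL core, 5 rose and 0 fell at 8 h, 6 rose and 2 fell at 24 h, and 8 rose and 2 fell at 48 and at 72 h. With the length trend removed the counts were 5 and 0, 4 and 2, 6 and 2, and 8 and 2, and with library size alone, under which 36.7% to 41.5% of all genes were called higher, 13 and 0, 11 and 2, 12 and 2, and 13 and 1. Setd1b, a SET1-type H3 lysine 4 methyltransferase, rose by 1.77 ± 0.17 on the log2 scale at 48 h (edgeR, adjusted p = 5.75e-05), and Kdm6a, the H3 lysine 27 demethylase of the MLL3 and MLL4 complexes, by 1.22 ± 0.12 (adjusted p = 5.66e-05). Dpy30, the small subunit that binds ASH2L, was not called at 8 h (-0.37, adjusted p = 0.0654 by edgeR) and fell at 24, 48 and 72 h, with changes of -1.08, -1.45 and -1.06 (adjusted p = 0.000484, 7.51e-05 and 0.000367). It measured 97.8 and 101 CPM at 0 h and 32.1 to 50.4 CPM from 24 h on. Dpy30 is short, at 705 nt, and with the length trend removed its changes at 24, 48 and 72 h were -0.63, -0.75 and -0.46 (edgeR, adjusted p = 0.00258, 0.000886 and 0.00903). Kmt2a itself (named after its values were seen, and in part shared with the fusion) rose by 0.64, 1.01, 1.38 and 1.6 at the 4 times (edgeR, adjusted p = 0.046, 0.00536, 0.000898 and 0.000414). At 16439 nt it is long, and with the length trend removed its values were 0.34 (adjusted p = 0.0604), 0.45, 0.61 and 0.84.

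Of 9 tested genes of the super elongation and DOT1L complexes, 0 rose and 1 fell at 8 h, 3 rose and 1 fell at 24 h, and 5 rose and 2 fell at 48 and 72 h. With library size alone 2, 5, 6 and 6 were higher and 1 was lower at each time. Eaf1, a partner of the ELL elongation factors, had the steadiest decrease: it measured 292.3 and 301.4 CPM at 0 h and 104.3 to 120.4 CPM in treated cells, and its log2 changes were -1.32, -1.35, -1.47 and -1.39 (edgeR, adjusted p = 4.39e-05, 2.8e-05, 1.02e-05 and 1.38e-05). Its change at 8 h was close to that at the later times. Ccnt2, a cyclin of P-TEFb, was not called at 8 h (-0.28, adjusted p = 0.124 by edgeR) and rose by 1.04 at 48 h (adjusted p = 0.000235), and Mllt6, which encodes the AF10 relative AF17, rose by 1.14 (adjusted p = 0.000473). Of the 6 PAF complex genes 1 was called higher at each time and 1 lower from 24 h on. The counts with the length trend removed were 2 and 0, 1 and 1, 2 and 0, and 2 and 0, and with library size alone 5 and 0, 3 and 0, 4 and 1, and 4 and 0. Rtf1 rose by 0.79 at 48 h (edgeR, adjusted p = 0.00132), Wdr61 fell by 0.78 (adjusted p = 0.00293) and Leo1 was not called (-0.15, adjusted p = 0.474). The Wdr61 call was lost with the length trend removed (1256 nt; -0.37, adjusted p = 0.06 by edgeR).

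Of 13 tested genes for other MLL fusion partners, of which Mllt6 and Ell are also on the elongation list, 6, 8, 8 and 9 rose at 8, 24, 48 and 72 h, and 1 fell at 8 h. With library size alone 8, 10, 10 and 10 were higher and 0 lower. Crebbp and Ep300, which encode the acetyltransferases that A-485 inhibits, rose by 1.67 and 1.22 at 8 h (edgeR, adjusted p = 6.23e-05 and 0.000342) and by 2 and 1.82 at 48 h (adjusted p = 1.2e-05 and 2.37e-05). Of 13 tested MLL target genes 1 rose and 2 fell at 8 h, and 7 rose and 2 fell at 72 h. With library size alone 4 were higher and 1 lower at 8 h, and 9 higher and 1 lower at 72 h. Myb, a progenitor transcription factor, fell by 1.82 at 8 h and fell by 1.4 at 72 h (edgeR, adjusted p = 0.000411 and 0.000665). Pbx3, a partner of HOXA9 and MEIS1, rose by 1.07 and 0.88 (adjusted p = 0.000665 and 0.000856), and Jmjd1c was not called at 8 h (0.57, adjusted p = 0.0613) and rose by 1.13 at 72 h (adjusted p = 0.00221), or by 0.71 with the length trend removed (adjusted p = 0.0107). Among 6 relatives and binding partners of the members, Phf1, a Polycomb-associated factor, rose by 3.73 at 72 h (edgeR, adjusted p = 1.39e-05). Hdgf, a relative of LEDGF, fell by 1.6 (adjusted p = 2.93e-05), and the relative Hdgfrp2 was higher at 8 h (0.58, adjusted p = 0.00423) and not called at 72 h (0.29, adjusted p = 0.0552), where it passed with the length trend removed (0.36, adjusted p = 0.0183). The median log2 change of the lists at 48 h was 0.29 for COMPASS, 0.74 for elongation, 0.15 for PAF, 0.61 for other partners, 0.47 for targets and 0.12 for relatives, beside -0.07 for the members and -0.04 for all genes.

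The single libraries show how far the set differed between normal and leukemic cells, without any replicate check. Psip1 was the one member with at least a 2-fold difference among the 9 that reached 10 CPM in the higher library: it was at 110 CPM in GMP, 53.4 in LSC and 46.8 in mAML. Its log2 ratio was -1.04 in LSC against GMP (95% exact binomial interval -1.12 to -0.96) and -1.23 in mAML against GMP (-1.31 to -1.15). These intervals cover counting error only, here and below. Over all genes 8.11% were at least 2-fold lower and 10.9% at least 2-fold higher in LSC than in GMP, and 12.5% lower and 19.2% higher in mAML than in GMP. Men1 was also lower in both leukemia libraries, at 62.5 CPM in GMP, 43.4 in LSC and 38.3 in mAML, with a ratio of -0.53 in LSC against GMP (-0.62 to -0.43). Aff4 was at 91.6, 56.1 and 66.7 CPM. The other members of the MLL core and DOT1L varied less between GMP and LSC: the ratios were 0.10 for Wdr5, 0.10 for Ash2l and -0.21 for Dot1l, and Mllt10, Aff1 and Mllt1 were at 0.50, 0.47 and 0.45.

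In mAML against the single LSC library none of the 9 members differed 2-fold, where 7% of all genes were at least 2-fold lower and 12.7% higher. Aff1 came nearest, at 140 CPM in mAML and 270 in LSC, or 1.93-fold lower (log2 ratio -0.95). With the 0 h libraries in place of the single LSC library, Men1 and Mllt3 were more than 2-fold lower in mAML, at log2 ratios of -1.48 and -3.96. Mllt1 (-0.61), Wdr5 (-0.45), Ash2l (-0.42) and Mllt10 (-0.31) were lower in this mAML library than in the single LSC library too, although with the 0 h libraries in its place Mllt1 was at 0.39 and Mllt10 at 0.13, while Dot1l, at 63.6 and 63.3 CPM, did not differ beyond counting error (0.01, interval -0.07 to 0.09). The T cell and erythroid markers given above move with mAML, and their part in these ratios was not tested.

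**Figure D5:**
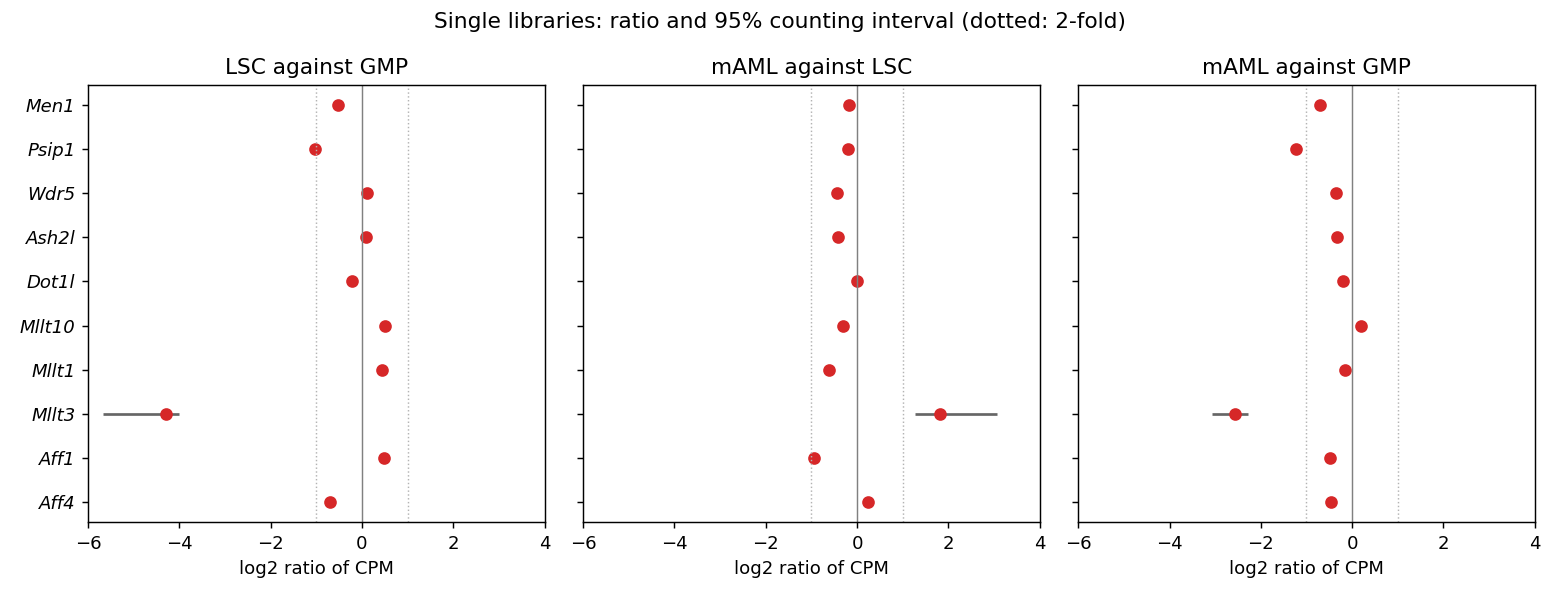
Log2 ratio of TMM-scaled CPM of the 10 genes for LSC against GMP, mAML against LSC and mAML against GMP, 1 library each, with 95% exact binomial intervals that cover counting error only. Psip1 lies past the 2-fold line in both comparisons with GMP, and Mllt3, below 10 CPM in all 3 libraries, has the widest intervals.

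The single LSC library and the untreated LSC of the time course, which share a cell type label, did not give the same levels. Mllt3 had 14 counts in the single LSC library (0.346 CPM before TMM scaling) and 67 in mAML, against 256 in GMP (10.4 CPM) and 264 and 244 at 0 h (27 and 28.2 CPM). With the 0 h libraries in place of the single one, the Mllt3 log2 ratio of LSC against GMP changed from -4.30 to 1.38, and that of mAML against LSC from 1.81 to -3.96. Men1 changed from -0.53 to 0.75 against GMP, and Psip1 from -1.04 to -0.31, so that the 2-fold difference of Psip1 was not seen with the 0 h cells. The sign against GMP also turned for Mllt1 (0.45 to -0.58), Aff4 (-0.71 to 0.33), Aff1 (0.47 to -0.08) and Wdr5 (0.10 to -0.15). In mAML against LSC it turned for Mllt1 (-0.61 to 0.39), Mllt10 (-0.31 to 0.13) and Aff4 (0.25 to -0.82). Per length, Men1 stood at 23.9 TPM in the single LSC library and at 61.4 and 62.4 TPM at 0 h. Wdr5 differed less, at 87.6 TPM beside 80.4 and 76.4. Whether the 2 kinds of LSC sample were grown or prepared alike is not given in the sources used here, so sample origin and preparation cannot be told apart.

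Genes whose levels ran most like those of Men1, Dot1l and Mllt10 were found by Pearson's r of log2 CPM among the genes that passed the filter, as a description. Over the 10 time-course libraries they were Surf4 (0.983), Ly6e (0.974) and Ing2 (0.967) for Men1, Ppig (0.882), Agpat6 (0.881) and Vdr (0.851) for Dot1l, and Isca1 (0.962), Frmd5 (0.961) and Osm (0.947) for Mllt10. Over all 13 libraries they were Hmga2 (0.991), Pla2g12a (0.979) and Klf9 (0.977) for Men1, Ppig (0.965), Usp7 (0.945) and Zbed4 (0.938) for Dot1l, and Nt5m (0.905), Lmo2 (0.898) and Btbd19 (0.896) for Mllt10. Ppig was thus the nearest gene to Dot1l in both sets of libraries. The libraries of a set share depth and treatment, which bear on every gene in them.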

How the data were processed

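RNA was extracted with RNeasy Plus kits and made into Illumina libraries, per the labels' protocols. STAR, RSEM and build mm9 are named in the submitters' processing notes, without versions or settings. The deposited expected counts are the authors' estimated reads per gene, and the deposited TPM are the authors' values scaled for length and depth. The counts were rounded and fitted with edgeR 4.0.16 in R 4.3.3: TMM scaling, filterByExpr, the quasi-likelihood test on the 10 time-course libraries with time as a factor and no block, and Benjamini-Hochberg adjustment over 11119 genes. Standard errors are approximate: the size of the log2 change over the root of its F value. Single libraries were compared by log2 ratios with a prior count of 5, with exact Clopper-Pearson (95%) intervals and no test. Named genes were the 10 members, the 3 genes of each list with the smallest p over the 4 treated times, and the 3 genes most like Men1, Dot1l and Mllt10. The members and lists were chosen with earlier results of these data known. Alternatives were library size alone, DESeq2 (1.42.0) and its size factors, limma (3.58.1) on log2(TPM + 1) and log2(TPM + 0.5), no filter, a replicate block, removal of the length trend (lowess, span 0.3) and leaving out each library. The test was checked on simulated counts. Replicate libraries differed by more than counting noise at every time (mean chi-square per gene 5.95 to 25.1), so none was taken for a repeat deposit of another; this does not show separate cultures.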

Additional observations from a re-analysis of the deposited data

Results flagged for a closer look

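Aff1 differed between early and late treatment: it was 0.77 higher on the log2 scale at 72 h than at 8 h by the test of that difference itself (edgeR, adjusted p = 0.00372), with 201.3 and 210.3 CPM at 8 h and 370.5 and 328.7 CPM at 72 h. Both 72 h libraries were above both 8 h libraries. Over all genes 15.1% were called higher and 17.2% lower between these times.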

How the results depend on the processing

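Wdr5 kept its call at each time under the 19 other settings, and Aff4 at 48 h and Aff1 between 8 and 72 h did too. The counts of called members moved with scaling. With limma on log2(TPM + 1) and on log2(TPM + 0.5) alike, members called higher were 4, 4, 7 and 8 at 8, 24, 48 and 72 h. In both, 1 was called lower at each time. Of all genes 43.7% to 55% were then called higher and 12.1% to 15.7% lower. Between 8 and 72 h 2 members were called higher, beside 28.9% of all genes. Over all times 9 members were called, with no share of all genes counted for limma. With library size alone 2 were higher and 1 lower at 8 h (all genes 36.7% and 13.7%), and 1 was lower at 72 h (all genes 20%). With no filter 1 was lower at 8 h (all genes 14.6%). With the length trend removed, with or without the replicate block, 0, 0, 1 and 0 were higher, where 18.2% to 25.5% of all genes were. Without the block 1 was lower between 8 and 72 h, beside 16.7% of all genes. Leaving out each library gave 0 to 1 higher and 1 to 2 lower at 8 h, 1 to 2 and 1 to 3 at 24 h, 1 to 2 and 1 to 3 at 72 h, and 1 to 2 higher between 8 and 72 h. Among single libraries, library size alone gave 2 members lower in LSC than GMP, 1 lower in mAML than LSC and 2 lower in mAML than GMP. TPM + 0.5 gave 1 lower in mAML than LSC. The 0 h libraries in place of LSC gave 1 higher and 0 lower than GMP, and 2 lower in mAML. For these settings no share over all genes was counted. With at least 1 CPM, 12.2% of all genes were at least 2-fold lower in LSC than GMP, against 8.11%.

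These values changed sign, in the order 8, 24, 48 and 72 h unless named. With library size alone Dot1l was 0.27, 0.063, 0.31 and 0.17, Mllt1 0.18, 0.12, 0.24 and 0.27, Men1 0.001 at 8 h and 0.059 at 48 h, Ash2l 0.28, 0.092 and 0.31 from 24 h, and at 8 h Psip1 0.24, Mllt10 0.06 and Aff1 0.09. On log2(TPM + 1), then log2(TPM + 0.5), Dot1l was 0.38, 0.26, 0.60 and 0.49, then 0.40, 0.27, 0.62 and 0.51; Men1 0.10, 0.14, 0.36 and 0.33 on both; Mllt1 0.31, 0.32, 0.56 and 0.61, then 0.32, 0.33, 0.57 and 0.62; Ash2l 0.48, 0.41 and 0.65 from 24 h on both; Psip1 0.39 and 0.34, then 0.40 and 0.35, at 8 and 72 h. At 8 h Mllt10 was 0.15 or 0.16 and Aff1 0.22, and Wdr5 between 8 and 72 h was 0.011 on both. With the length trend removed Mllt10 was -0.14, -0.25 and -0.012 from 24 h and Mllt3 -0.19 and -0.22 from 48 h, and with the replicate block too -0.15 and -0.25, and -0.19 and -0.23. Leaving out each library gave Ash2l -0.18 to 0.11 at 24 h and -0.18 to 0.068 at 72 h, Dot1l -0.065 to 0.031 at 8 h and -0.052 to 0.056 at 48 h, Mllt1 -0.25 to 0.08, -0.34 to 0.015, -0.20 to 0.13 and -0.21 to 0.12, Mllt10 -0.62 to 0.059, -0.21 to 0.28 and -0.025 to 0.15 up to 48 h, Mllt3 -0.052 to 0.30 at 48 h and -0.24 to 0.33 at 72 h, and Psip1 -0.17 to 0.11 at 8 h. With the 0 h libraries in place of LSC, Mllt3 was 1.38, Men1 0.75, Mllt1 -0.58, Aff4 0.33, Aff1 -0.08 and Wdr5 -0.15 against GMP, and in mAML Mllt3 was -3.96, Mllt1 0.39, Mllt10 0.13 and Aff4 -0.82. The cause was not tested, beyond what each setting changes by construction.

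Deviations of libraries with the same replicate number correlated at 0.70 between 8 and 24 h. They correlated at -0.45 between 8 and 72 h and at -0.47 between 24 and 72 h, and from -0.03 to 0.18 over the other pairs of times. The numbers thus did not pair the libraries in the same direction at all times, but deviations were shared among 8, 24 and 72 h. The main test takes libraries as independent, and what this sharing does to its p-values was not tested. With the replicate block the counts of called members at each time did not move, and 4 members rather than 5 were called over all times. The time course had 6467764 to 9763276 counts a library and 2 libraries a time. Men1 at 48 h was called at -0.29 ± 0.10, and Dot1l at 24 h, -0.24 ± 0.11, was not. How far depth and the number of libraries limit what can be called was not tested.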
